A study of Homo sapiens with 6 samples.

Results

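The genes described here carry gemcitabine into the cell, activate it, inactivate it, or encode the enzyme it blocks. They were chosen by symbol: RRM1, RRM2, RRM2B, DCK, CDA, SLC29A1, SLC29A2, DCTD, CMPK1 and SAMHD1. All 10 were found among the 30717 genes of the count table, and all 10 passed the filter on low counts. Their RNA was measured in T24 and UMUC3, established human bladder cancer cell lines. Some cells had circPTK2, a circular RNA made from exons of PTK2, knocked down, and the others were control cells of the same line. There were 2 T24 knockdown libraries, 1 T24 control library, 2 UMUC3 knockdown libraries and 1 UMUC3 control library. The sample titles name siRNAs numbered 1 and 2, and the design text of the series names sh constructs, so the reagent is not settled here. Separate cultures are not stated for the libraries of a line, and p-values therefore measure only the spread between libraries, which may be technical. By title the knockdown libraries of a line carry different siRNA numbers, so this spread also takes in any difference between the reagents.

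Gemcitabine is a deoxycytidine analogue. It enters cells through nucleoside transporters, is phosphorylated stepwise by kinases, and acts as a diphosphate on ribonucleotide reductase and as a triphosphate on DNA synthesis. Ribonucleotide reductase makes deoxynucleotides from ribonucleotides; it pairs a large subunit with a small subunit, and levels of its subunits are among the features linked with the response of tumours to the drug.

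Library depth was 65111683 to 72362436 counts, with 55071837 to 60780176 of them in genes. Knockdown of the circle itself was not checked, since counts of PTK2 do not separate it from linear RNA. Of 13 markers of bladder carcinoma epithelium, summed levels were 3130 to 3351 CPM (counts relative to the TMM-adjusted size of each library) in T24 and 174 to 193 CPM in UMUC3. Of the 13, 7 reached 1 CPM in each T24 library, and 3 or 4 did in each UMUC3 library. KRT8 stood at 1482 CPM or more in T24 and at 81.5 CPM or more in UMUC3. In UMUC3 nearly all of the sum was KRT8 and KRT18 (84.3 to 95.9 CPM). There EPCAM was at 0, KRT19 at 0.263 CPM or less and GATA3 at 0.824 CPM or less. CDH1 and the uroplakins UPK1A, UPK1B and UPK2 stayed under 0.5 CPM in all libraries of both lines. Immune markers summed to at most 5.14 CPM, nearly all from CD14, with PTPRC at 0.0673 CPM or less. Endothelial and stromal markers summed to 66.8 to 77.9 CPM in T24 and 3.68 to 7.27 CPM in UMUC3. In T24 nearly all of this was CDH5 (64.5 to 75.5 CPM), which was at 0 in UMUC3.

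RRM2 encodes a small subunit, and its annotated mRNAs begin at alternative starts. Its promoter windows are shown because counts lay on mRNAs with different starts in knockdown and control libraries. This is by the authors' assignment of reads, as described further on. RefSeq (GRCh38.p14) lists 2 windows for RRM2, each from 250 bases before to 50 bases after a start. Capitals mark CCAAT, the letters bound by the factor NF-Y, searched on both strands.
RRM2 upstream window (chr2:10122318-10122617, plus strand): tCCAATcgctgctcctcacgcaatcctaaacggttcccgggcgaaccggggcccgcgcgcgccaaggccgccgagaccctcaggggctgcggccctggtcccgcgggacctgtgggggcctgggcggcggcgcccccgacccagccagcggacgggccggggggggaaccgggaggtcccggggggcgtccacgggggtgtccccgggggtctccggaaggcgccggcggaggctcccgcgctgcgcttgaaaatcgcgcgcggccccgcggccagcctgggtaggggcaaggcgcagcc
RRM2 downstream window (chr2:10122489-10122788, plus strand): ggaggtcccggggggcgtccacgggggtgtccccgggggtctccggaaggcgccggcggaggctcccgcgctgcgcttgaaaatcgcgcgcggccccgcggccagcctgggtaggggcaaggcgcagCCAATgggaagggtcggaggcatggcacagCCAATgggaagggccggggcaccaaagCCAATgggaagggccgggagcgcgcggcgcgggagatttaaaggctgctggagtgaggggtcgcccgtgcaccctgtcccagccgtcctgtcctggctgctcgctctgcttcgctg
The windows overlap. The downstream window holds 3 CCAAT matches, beginning 123, 93 and 66 bases before its start, and the upstream window holds 1. Of 35116 RefSeq promoters of this length, 34.6% hold at least 1 match and 3.26% hold 3 or more. The downstream window also has the letters TTTAAA, found in 12.2% of promoters, beginning 30 bases before the start. Among the genes of the set, 8 had a promoter in the table.

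RRM2B encodes p53R2, a p53-inducible small subunit that supplies deoxynucleotides for DNA repair and for mitochondrial DNA outside S phase. The gene (ENSG00000048392) lies on GRCh38 chromosome 8, 102204502 to 102239118, minus strand. Its level was 11.4 and 13.1 CPM in T24 knockdown libraries, against 45.6 CPM in the T24 control. In UMUC3 it was 24.7 and 26.6 CPM in knockdown libraries, against 59.9 CPM in the control. All 4 knockdown libraries were below the control of their line, and in each line the knockdown pair differed far less than the gap to the control. The fitted log2 fold change was -1.90 ± 0.17 in T24, -1.22 ± 0.17 in UMUC3 and -1.57 ± 0.20 in both lines together (SE). In edgeR's quasi-likelihood test the adjusted p values were 0.0808, 0.0802 and 0.0923, so RRM2B did not pass the threshold of 0.05 over the 20721 genes tested. DESeq2 called it in both lines together with an adjusted p of 1.51e-08, where it called 4.73% of genes. Over the 19 alternatives tried for that comparison, the adjusted p ran from 1.51e-08 to 0.419. Among composition-stable genes (at least 2 transcripts, and less than 0.2 of the counts moving between transcripts in either line), edgeR called RRM2B with an adjusted p of 0.0332 in both lines together, 0.0188 in T24 and 0.0181 in UMUC3, where it called 1.14%, 4.61% and 12.9% of 4467 genes. Of the 15911 genes with more than 3 counts in every library, 0.434% were at a log2 ratio of -1 or less in all 4 knockdown libraries, RRM2B among them. In cultures measured in bulk, fewer cells that express a gene and less RNA per cell cannot be told apart.

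In single knockdown libraries against the control of the line, 11 of 36 log2 ratios (9 genes with more than 3 counts in every library) were 1 or more in size. T24 library 1 had 2 of 9, against 16.3% of all genes, and T24 library 2 had 3, against 16.6%. The UMUC3 libraries had 3 each, against 19.9% and 19.3%. RRM2B was among them in all 4, SLC29A2 and SAMHD1 in 2 each and DCTD in 3.

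Over the whole set the edgeR knockdown comparisons called no gene at an adjusted p under 0.05. In both lines together edgeR called 0 of 10, against 0.0145% of all genes, with RRM2B, SAMHD1 and SLC29A1 at an unadjusted p under 0.05 (11.6% of all genes). In T24 edgeR called 0 of 10, against 0.135% of all genes, with 3 at an unadjusted p under 0.05 (12.5% of all genes): RRM2, RRM2B and SLC29A1. In UMUC3 edgeR called 0 of 10, against 0.647% of all genes, with RRM1 and RRM2B at an unadjusted p under 0.05 (16.8% of all genes). DESeq2 called RRM2B alone in each of these comparisons (4.73%, 4.73% and 8.28% of all genes), and limma voom called 0 of 10 in each (0.0145%, 0% and 0% of all genes). The median log2 fold change of the set was -0.01 in both lines, -0.40 in T24 and 0.03 in UMUC3, beside 0.005, 0 and 0 over all genes.

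**Figure D1:**
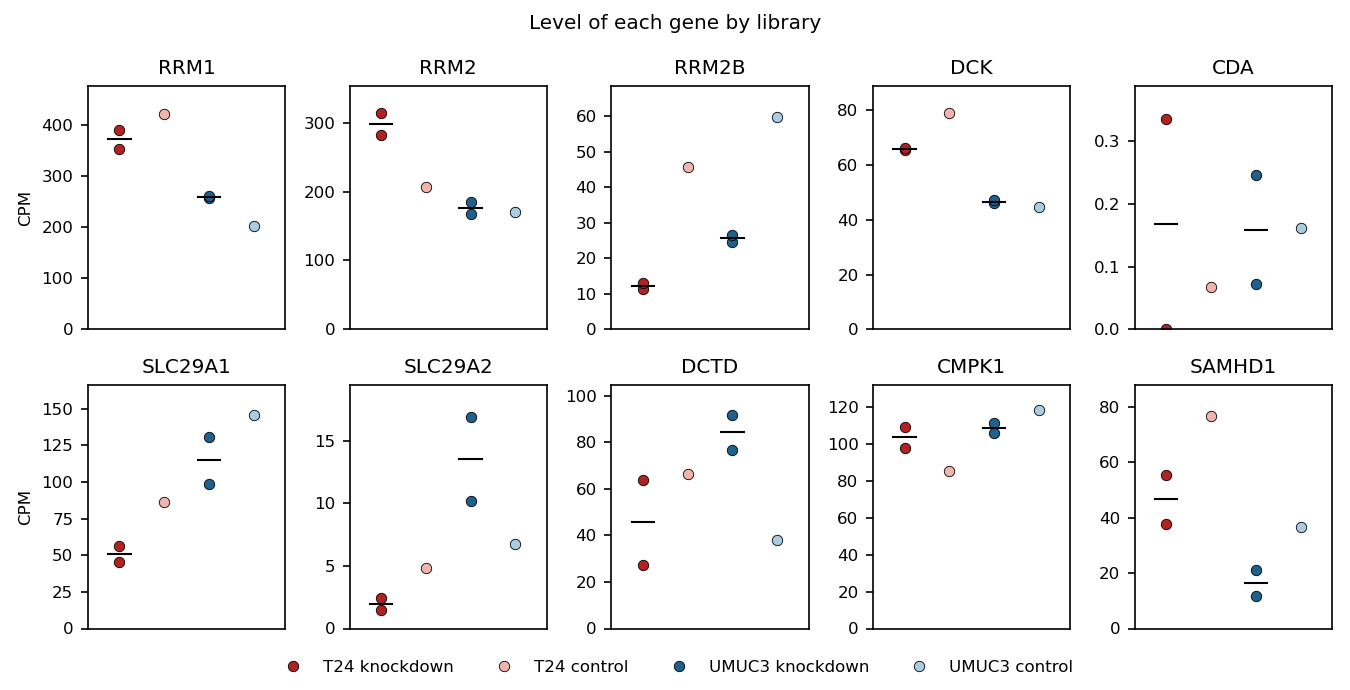
Level in CPM of each gene in each library, with knockdown libraries as dark points (2 per line, bar at their mean) and the control of the line as a pale point. RRM2B is lower in all 4 knockdown libraries than in the control of its line, while SLC29A2, DCTD, DCK and RRM1 lie below the control in T24 and above it in UMUC3.

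The other ribonucleotide reductase subunits lay closer to their controls. RRM1 (ENSG00000167325, chromosome 11, 4094707 to 4138876, plus strand) encodes the large, catalytic subunit. It stood at 354 and 392 CPM in T24 knockdown libraries, against 423 CPM in the control, and at 257 and 261 CPM in UMUC3 knockdown libraries, against 202 CPM in the control. The knockdown libraries were thus below the control in T24 and above it in UMUC3. The log2 fold change was -0.18 ± 0.10 in T24 (edgeR adjusted p = 0.523) and 0.36 ± 0.10 in UMUC3 (edgeR adjusted p = 0.21). RRM2 stood at 282 and 314 CPM in T24 knockdown libraries, against 207 CPM in the control. In UMUC3 it stood at 185 and 168 CPM in knockdown libraries, against 170 CPM in the control, so the UMUC3 knockdown libraries lay on both sides of it. The log2 fold change was 0.53 ± 0.12 in T24 (edgeR adjusted p = 0.244) and 0.05 ± 0.12 in UMUC3 (edgeR adjusted p = 0.881).

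The direction of RRM2 depended on the scale. Per transcript length, as TPM (counts per kilobase of each transcript, from GENCODE lengths, scaled to a common total), RRM2 was at 181 and 198 TPM in T24 knockdown libraries, against 217 TPM in the control. In UMUC3 it was at 143 and 153 TPM in knockdown libraries, against 186 TPM in the control. All 4 knockdown libraries were thus below the control in TPM, while in CPM 3 of them were above it. TPM adds up all transcripts of a gene, and a count weighs more on a shorter transcript. The leading 3 mRNAs of RRM2 (3271 to 3673 bases), counted together in CPM, were above the control in all 4 knockdown libraries, as given further on. The mean length of the RRM2 transcripts that received counts was 3430 and 3460 bases in T24 knockdown libraries, against 2933 bases in the control, and 3161 and 3059 bases in UMUC3 knockdown libraries, against 2734 bases in the control. RRM2B stayed lower on the TPM scale too, at 5.4 and 6.4 TPM in T24 knockdown libraries, against 22 TPM in the control, and at 10.7 and 12.5 TPM in UMUC3 knockdown libraries, against 26.4 TPM in the control. The ratio of RRM2 to RRM2B per length was 33.5 and 30.9 in T24 knockdown libraries, against 9.85 in the control, and 13.3 and 12.3 in UMUC3 knockdown libraries, against 7.07 in the control.

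By the authors' assignment of reads, RRM2 (ENSG00000171848, GRCh38 chromosome 2, 10120698 to 10131419, plus strand) had its counts on different transcripts in knockdown and control libraries. The leading 3 mRNAs have 10 exons each and identical splice junctions, and they differ at the start of exon 1. Most of their sequence is thus shared. Reads may move between transcripts of a gene in such an assignment, here and for the other genes, and how far they did was not tested. ENST00000360566 begins at 10122328, ENST00000615152 begins 240 bases downstream at 10122568, and ENST00000304567 begins a further 162 bases downstream at 10122730. The first 2 encode 449 residues and the last encodes 389. The start of ENST00000615152 lies inside both windows printed above, and that of ENST00000304567 lies in the downstream window. That of ENST00000360566 lies close to the first base of the upstream window (10122318), so the sequence before it is not printed.

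ENST00000615152 held 0.519% and 0.364% of RRM2 counts in T24 knockdown libraries, against 46.6% in the control. In UMUC3 it held 2.93% and 4.84% in knockdown libraries, against 65.1% in the control. The 95% Wilson intervals were 0.421 to 0.64% and 0.287 to 0.461% in T24 knockdown libraries, against 45.7 to 47.5% in the control. These cover counting error only, and no error in assigning reads to transcripts. This mRNA was a minor transcript in all 4 knockdown libraries and led in both controls. ENST00000304567 held 39.6% and 37% in T24 knockdown libraries, against 5.85% in the control, and 45.5% and 30.3% in UMUC3 knockdown libraries, against 2.22% in the control. ENST00000360566 held 57% and 60.5% in T24 knockdown libraries, against 26.7% in the control, and 40.4% and 48.2% in UMUC3 knockdown libraries, against 5.87% in the control. Both were larger in every knockdown library than in the control of the line. The other 10 transcripts, most of them annotated as retaining an intron, held 2.88% and 2.15% in T24 knockdown libraries, against 20.9% in the control, and 11.2% and 16.7% in UMUC3 knockdown libraries, against 26.8% in the control. Counted together, the 3 mRNAs stood at 274 and 308 CPM in T24 knockdown libraries, against 164 CPM in the control, and at 164 and 140 CPM in UMUC3 knockdown libraries, against 124 CPM in the control. These transcripts were singled out after their values were seen and have no test.

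**Figure D2:**
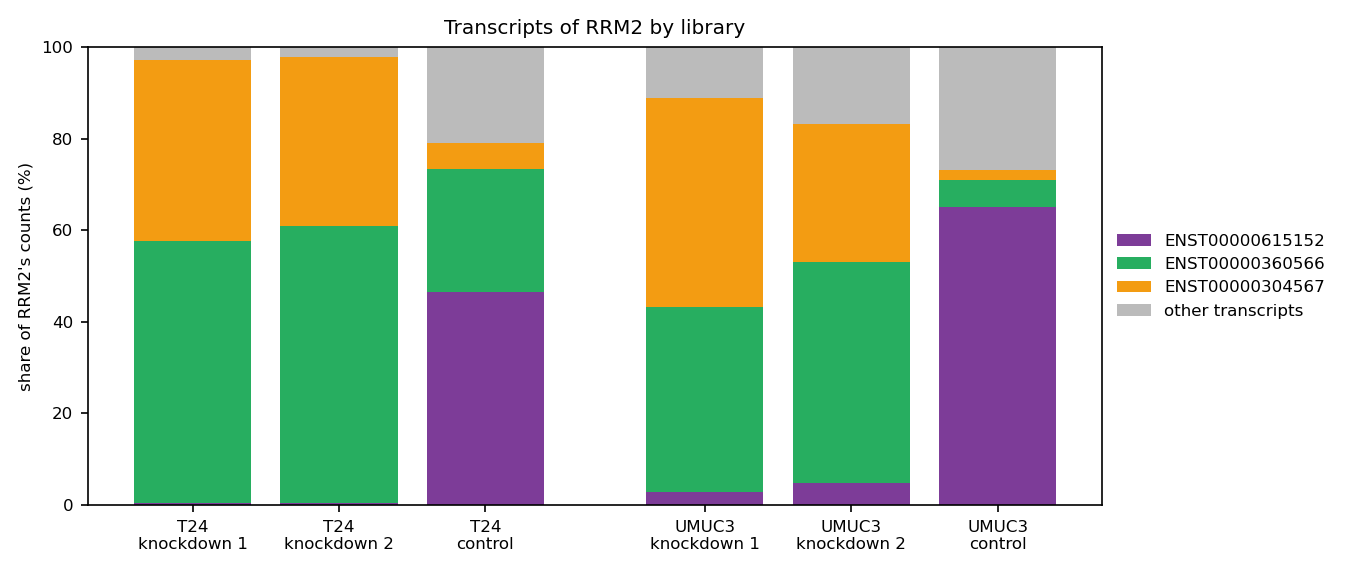
Share of RRM2's counts (%) on each of its leading 3 mRNAs and on all other transcripts, for the knockdown and control libraries of each line. ENST00000615152 holds under 5% in all 4 knockdown libraries, against 46.6% in the T24 control and 65.1% in the UMUC3 control.

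To set this beside other genes, a transcript shift was computed for each gene and each pair of libraries: the part of its counts that would have to move to another transcript to turn the make-up of either library into that of the other. For RRM2 it was 0.64 and 0.65 between the T24 knockdown libraries and their control, and 0.78 and 0.72 in UMUC3, but 0.04 between the T24 knockdown libraries and 0.15 between those of UMUC3. Of 10198 genes with at least 2 transcripts and a mean of at least 5 CPM, 26 (0.255%) had 0.5 or more in all 4 knockdown libraries and under 0.2 within both knockdown pairs. Shifts of 0.5 or more were otherwise as frequent within a knockdown pair (12.1% of genes in T24, 11.9% in UMUC3) as between a knockdown library and its control (12.2 to 12.7%). Each line has a lone control library, so for any gene a shift against it cannot be told apart from a peculiarity of that library. Over all genes, retained-intron transcripts held 6.52% and 6.05% of counts in T24 knockdown libraries, against 6.32% in the control, and 7.02% and 7.69% in UMUC3 knockdown libraries, against 7.65% in the control. How far this touches RRM2 was not tested.

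RRM2B and RRM1 kept their transcripts. The shift of RRM2B was at most 0.02 in any pair of libraries of a line, with ENST00000251810 holding 95.2% or more of its counts in every library. That of RRM1 was at most 0.10.

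**Figure D3:**
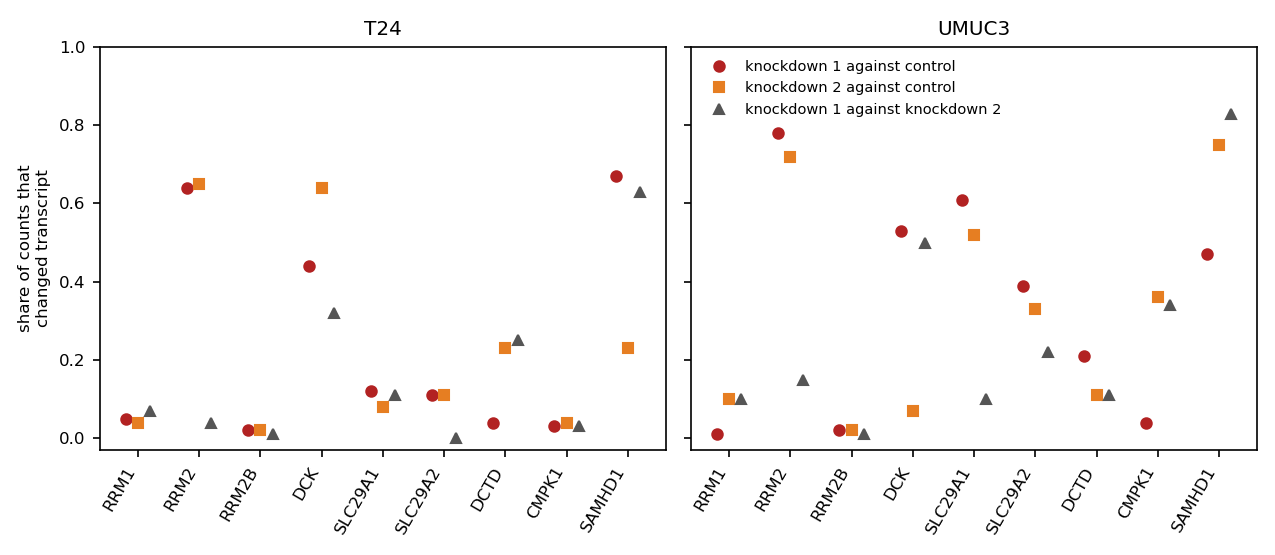
Share of each gene's counts that changed transcript, for each knockdown library against the control of its line and for the knockdown pair of the line (CDA, with 1 transcript, is left out). In both lines RRM2 has high values against the control (0.64 to 0.78) and low ones within the pair (0.04 and 0.15), while SAMHD1 is also high within the pair (0.63 and 0.83).

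SAMHD1 (ENSG00000101347, chromosome 20, 36889773 to 36951901, minus strand) encodes an enzyme that cleaves deoxynucleoside triphosphates and so counteracts the supply of deoxynucleotides. It stood at 37.9 and 55.4 CPM in T24 knockdown libraries, against 76.6 CPM in the control, and at 21 and 11.9 CPM in UMUC3 knockdown libraries, against 36.7 CPM in the control. All 4 knockdown libraries were below the control, though the pairs were wide apart: in UMUC3 knockdown library 2 its log2 ratio (-1.63) was below that of RRM2B (-1.17). The log2 fold change was -0.71 ± 0.42 in T24, -1.16 ± 0.43 in UMUC3 and -0.94 ± 0.29 in both lines together (edgeR adjusted p = 0.56, 0.303 and 0.327). Its transcripts differed even within the knockdown pairs. The full-length coding mRNA ENST00000646673 held 89.4% and 29.2% of its counts in T24 knockdown libraries, against 27.7% in the control, and 11.1% and 75.7% in UMUC3 knockdown libraries, against 16.7% in the control. The retained-intron transcript ENST00000647095 was at 0 counts in T24 knockdown library 1 and UMUC3 knockdown library 2, where 0 allows up to 3 counts, a share of 0.133% and 0.415%, and held 62.8% and 77.6% in the other knockdown library of each line.

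The transporters are SLC29A1 and SLC29A2, which encode the equilibrative nucleoside transporters ENT1 and ENT2; ENT1 is the main route of gemcitabine into many tumour cells. SLC29A1 lies on chromosome 6, 44219505 to 44234151, plus strand, and SLC29A2 on chromosome 11, 66362521 to 66372214, minus strand. SLC29A1 stood at 45.2 and 56.6 CPM in T24 knockdown libraries, against 86.3 CPM in the control. In UMUC3 it stood at 131 and 99 CPM in knockdown libraries, against 146 CPM in the control. All 4 knockdown libraries were below the control, with a log2 fold change of -0.76 ± 0.24 in T24, -0.34 ± 0.24 in UMUC3 and -0.56 ± 0.19 in both lines together (edgeR adjusted p = 0.343, 0.553 and 0.366). With RRM2B and SAMHD1, it made 3 of the 9 genes measured in every library that were below the control in all 4 knockdown libraries, a pattern found in 16.9% of all genes; none was above it in all 4, against 15.5% of all genes. In UMUC3 the SLC29A1 transcript ENST00000371724 held 1.25% and 4.47% of its counts in knockdown libraries, against 54.1% in the control, and ENST00000371708 held 89.6% and 81.4%, against 31.8%. In T24 ENST00000371708 led in every library, with 83.9% or more.

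SLC29A2 was low in T24. It stood at 2.47 and 1.51 CPM in T24 knockdown libraries, against 4.83 CPM in the control, and at 16.9 and 10.2 CPM in UMUC3 knockdown libraries, against 6.75 CPM in the control. The knockdown libraries were below the control in T24 and above it in UMUC3. The log2 fold change was -1.28 ± 0.51 in T24 and 1.00 ± 0.46 in UMUC3 (edgeR adjusted p = 0.426 and 0.385). In UMUC3 the coding transcript ENST00000619145 held 27.6% and 32.3% of its counts in knockdown libraries and was at 0 in the control, which allows a share of up to 0.796%.

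Deoxycytidine kinase, encoded by DCK, adds the first phosphate to gemcitabine, and CMPK1, which encodes UMP-CMP kinase, adds the second. DCK lies on chromosome 4, 70992538 to 71030914, and CMPK1 on chromosome 1, 47333797 to 47378839, both on the plus strand. DCK stood at 65.5 and 66.2 CPM in T24 knockdown libraries, against 79.1 CPM in the control, and at 46 and 47.3 CPM in UMUC3 knockdown libraries, against 44.6 CPM in the control. The knockdown pairs were close, and the log2 fold change was -0.27 ± 0.12 in T24 and 0.06 ± 0.13 in UMUC3 (edgeR adjusted p = 0.477 and 0.86). In T24 the DCK transcript ENST00000503359, annotated as a target of nonsense-mediated decay, held 3.16% and 1.58% of its counts in knockdown libraries, against 46.7% in the control. In UMUC3 it held 6.74% and 19.3% in knockdown libraries, on both sides of the control at 15%. The coding mRNA ENST00000286648 held 54.8% and 87.2% in T24 knockdown libraries, against 22.8% in the control, and 93.1% and 42.8% in UMUC3 knockdown libraries, against 40.2% in the control. CMPK1 stood at 109 and 97.7 CPM in T24 knockdown libraries, against 85.4 CPM in the control, and at 106 and 111 CPM in UMUC3 knockdown libraries, against 118 CPM in the control. Its log2 fold change was 0.28 ± 0.13 in T24 and -0.12 ± 0.12 in UMUC3 (edgeR adjusted p = 0.474 and 0.699).

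The deaminases are CDA, which inactivates gemcitabine, and DCTD, which deaminates its monophosphate. They lie on chromosome 1, 20588948 to 20618908, plus strand, and on chromosome 4, 182890060 to 182917936, minus strand. CDA was near the limit of detection, with 20 and 0 counts in T24 knockdown libraries, against 4 in the control, and 4 and 15 counts in UMUC3 knockdown libraries, against 9 in the control. The 0 allows up to 3 counts, or 0.0505 CPM, and no fold change is given for this gene. DCTD stood at 63.7 and 27.4 CPM in T24 knockdown libraries, against 66.4 CPM in the control, and at 91.8 and 76.9 CPM in UMUC3 knockdown libraries, against 38.2 CPM in the control. The T24 knockdown pair was wide, with library 1 close to the control. The log2 fold change was -0.54 ± 0.54 in T24 and 1.14 ± 0.58 in UMUC3 (edgeR adjusted p = 0.739 and 0.434).

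**Figure D4:**
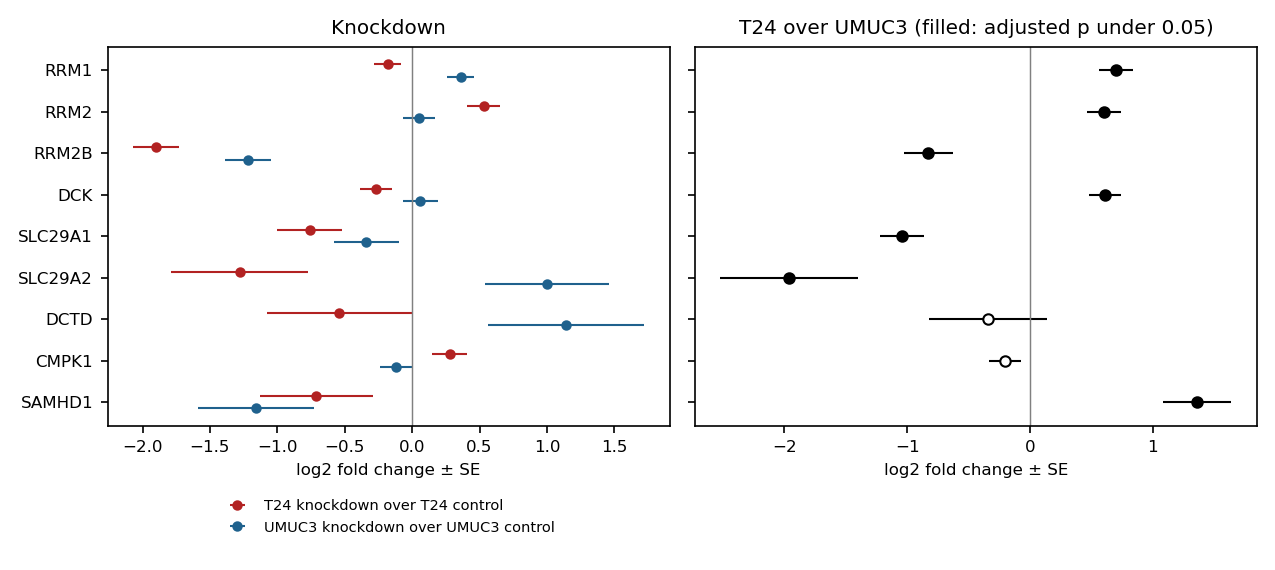
Log2 fold change with its standard error for 9 genes (CDA left out), for knockdown over control within each line and for T24 over UMUC3. RRM2B is at -1.90 in T24 and -1.22 in UMUC3 after knockdown, where SAMHD1 (-1.16 ± 0.43) is within its error of RRM2B, and 7 genes pass the threshold between the lines.

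Whether knockdown acted differently in the lines was tested by the difference of their fold changes, T24 minus UMUC3. edgeR called 0 of 10 genes, against 0.0579% of all genes, with RRM1, RRM2 and SLC29A2 at an unadjusted p under 0.05 (13.5% of all genes). DESeq2 called 0 (5.41% of all genes), and so did limma voom (0% of all genes). The largest differences were -2.28 ± 0.69 for SLC29A2 (edgeR adjusted p = 0.313) and -1.69 ± 0.79 for DCTD (edgeR adjusted p = 0.471). That of RRM1 was -0.54 ± 0.14 (edgeR adjusted p = 0.268) and that of RRM2B was -0.67 ± 0.25 (edgeR adjusted p = 0.374). In RRM1, DCK, SLC29A2 and DCTD both knockdown libraries were below the control in T24 and above it in UMUC3. This was 4 of 9 genes, against 13.8% of all genes.

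Transcription of RRM1 and RRM2 peaks around S phase, and 16 other S-phase and proliferation genes were set beside them. In T24 edgeR called 0 of the 16, and their median log2 fold change was -0.56, with 14 of 16 negative and 11 of those at an unadjusted p under 0.05 (12.5% of all genes); all genes had a median of 0. DESeq2 called 8 of the 16 in T24 (4.73% of all genes), all lower after knockdown, and limma voom called 0. In UMUC3 edgeR also called 0 of the 16, with a median of 0.13 and 10 positive. At an unadjusted p under 0.05 edgeR had 5, 4 positive and 1 negative (16.8% of all genes). DESeq2 called 3 (8.28% of all genes), all higher, and limma voom 0. In the difference between the lines edgeR called 0, with 14 of 16 negative, a median of -0.66 and 12 at an unadjusted p under 0.05 (13.5% of all genes), while DESeq2 called 7 (5.41% of all genes), all negative, and limma voom 0. In both lines together edgeR called 0, DESeq2 called CCNE1 alone, lower (4.73% of all genes), and limma voom called 0. MCM3, a replicative helicase subunit, had a log2 fold change of -0.80 in T24 and 0.60 in UMUC3. PCNA, the sliding clamp, had -0.49 and 0.27. Not all shared these signs. MCM2 (-0.92 and -0.10), CDC45 (-0.87 and -0.19), CCNE1 (-1.07 and -0.83), CCNE2 (-0.30 and -0.77) and E2F2 (-0.67 and -0.03) were negative in both lines. TOP2A was positive in both (0.06 and 0.09), and MKI67 had the reverse order (0.10 and -0.13). RRM1 had the order of signs of MCM3 and PCNA, with -0.18 in T24 and 0.36 in UMUC3. RRM2 was at 0.53 in T24 and 0.05 in UMUC3. These are fold changes of counts per gene. Per length, in TPM over all its transcripts, RRM2 was below the control in all 4 knockdown libraries, as given above. Its leading 3 mRNAs, counted together in CPM, were above the control in all 4. The place of RRM2 beside the S-phase genes thus depends on the scale and on the transcripts counted.

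**Figure D5:**
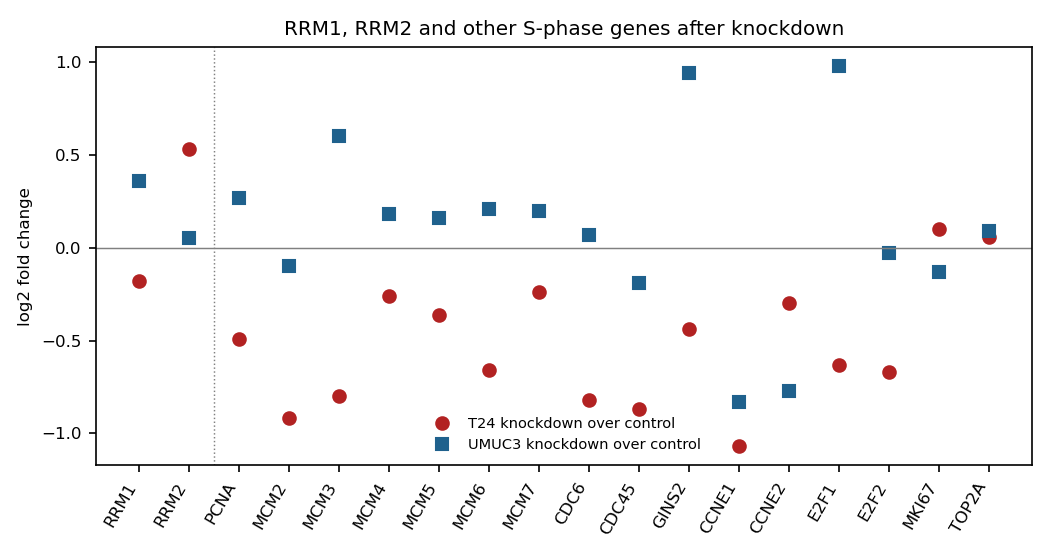
Log2 fold change of RRM1, RRM2 and 16 S-phase genes for knockdown over control in T24 (circles) and UMUC3 (squares). In T24, 14 of the 16 are below 0; in UMUC3, 10 are above 0.

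Of 32 other genes of nucleotide metabolism and drug transport, 29 were tested, and edgeR called 0 of them in T24, in UMUC3, in both lines together or in the difference; at an unadjusted p under 0.05 there were 6, 7, 2 and 8, against 12.5%, 16.8%, 11.6% and 13.5% of all genes. DESeq2 called 1, 1, 2 and 2 of them, against 4.73%, 8.28%, 4.73% and 5.41% of all genes, and limma voom 0 in each. In both lines together their median log2 fold change was -0.04. The smallest p in T24 was that of ABCC5, an exporter of nucleotide analogues. It stood at 90.2 and 94.1 CPM in T24 knockdown libraries, against 48.1 CPM in the control, and at 236 and 252 CPM in UMUC3 knockdown libraries, against 232 CPM in the control (log2 0.94 in T24, edgeR adjusted p = 0.0986). TK1, thymidine kinase, was next in T24, at 296 and 278 CPM in knockdown libraries, against 404 CPM in the control (log2 -0.49, edgeR adjusted p = 0.175). NT5E, the ectonucleotidase CD73, came first in UMUC3 and in both lines together, at 1570 and 1722 CPM in UMUC3 knockdown libraries, against 1238 CPM in the control, and at 76.5 and 79.7 CPM in T24 knockdown libraries, against 56.5 CPM in the control. Its log2 fold change was 0.44 in both lines (edgeR adjusted p = 0.185) and 0.41 in UMUC3 (0.147). DUT, the dUTPase, was next in UMUC3 with 0.53 (edgeR adjusted p = 0.186), and DTYMK, thymidylate kinase, was next in both lines with -0.42 (edgeR adjusted p = 0.318). In the difference between the lines ABCC5 (0.87) and DUT (-0.96) had the smallest p, with edgeR adjusted p values of 0.17 and 0.19.

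The lines themselves differed in most of these genes. With condition held, edgeR called 7 of 10 between T24 and UMUC3, against 40.2% of all genes. RRM1, RRM2, DCK and SAMHD1 were higher in T24 (4 of 10, against 21.3% of all genes), and RRM2B, SLC29A1 and SLC29A2 were lower in T24 (3 of 10, against 18.9% of all genes). RRM1 averaged 390 ± 34.6 CPM in T24 and 240 ± 33 CPM in UMUC3 (SD over 3 libraries of mixed condition), a log2 difference of 0.70 ± 0.14 (edgeR adjusted p = 0.0112). DCK averaged 70.3 ± 7.67 CPM in T24 and 46 ± 1.31 CPM in UMUC3, a log2 difference of 0.61 ± 0.13 (edgeR adjusted p = 0.0155). SAMHD1 differed by 1.36 ± 0.28 (edgeR adjusted p = 0.0134) and SLC29A1 by -1.04 ± 0.18 (edgeR adjusted p = 0.00762), with 62.7 ± 21.2 CPM in T24 and 125 ± 24 CPM in UMUC3 for SLC29A1. RRM2 differed by 0.60 ± 0.14, RRM2B by -0.83 ± 0.20 and SLC29A2 by -1.96 ± 0.56, with edgeR adjusted p values of 0.0183, 0.0211 and 0.0396. These 3 lost the call when any 1 knockdown library was left out, and SLC29A2 kept it in only 9 of 19 alternatives. With each gene's leading transcript alone, DCK, SLC29A1 and SAMHD1 also lost it (edgeR adjusted p = 0.515, 0.449 and 0.741). DCTD (-0.34 ± 0.48) and CMPK1 (-0.20 ± 0.13) did not pass.

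The libraries of the lines did not overlap in CPM for RRM1, RRM2, DCK, SLC29A1, SLC29A2 and SAMHD1, 6 of 9 genes, against 50.5% of all genes. For RRM2B they overlapped, since its T24 control (45.6 CPM) was above the UMUC3 knockdown libraries (24.7 and 26.6 CPM). Between the controls alone, the log2 ratio of T24 over UMUC3 was 1.07 for RRM1, 0.83 for DCK, 1.06 for SAMHD1, 0.28 for RRM2, -0.39 for RRM2B, -0.76 for SLC29A1 and -0.48 for SLC29A2. All 7 kept the sign of the fitted difference, and RRM1 and SAMHD1 were past a log2 ratio of 1, as were 40.6% of all genes.

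Ranked per length over the 3 libraries of T24, RRM1 was highest with 245 to 307 TPM, above RRM2 with 181 to 217 TPM. CMPK1 (64.7 to 83.6 TPM), DCTD (37.8 to 80 TPM), SLC29A1 (48.9 to 86 TPM) and DCK (50.1 to 61.3 TPM) followed. DCTD and SLC29A1 overlapped each other and both of the others, while CMPK1 lay above DCK in every library. SAMHD1 (18.5 to 37.3 TPM) and RRM2B (5.4 to 22 TPM) overlapped in range, though SAMHD1 was above RRM2B in every T24 library. Below them lay SLC29A2 with at most 3.95 TPM and CDA with at most 0.704 TPM. In UMUC3 RRM2 (143 to 186 TPM) and RRM1 (133 to 179 TPM) overlapped at the top; SLC29A1 (103 to 142 TPM) overlapped RRM1 but not RRM2. CMPK1 (79.6 to 123 TPM), DCTD (50.5 to 96.6 TPM) and DCK (32.6 to 35 TPM) came next. CMPK1 overlapped both SLC29A1 and DCTD, while DCK lay below them in every library. RRM2B (10.7 to 26.4 TPM), SAMHD1 (6.39 to 18.2 TPM) and SLC29A2 (5.16 to 12.9 TPM) overlapped below them, and CDA was again last. Within each UMUC3 library RRM2B was above SAMHD1.

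The genes closest in pattern to RRM2B over the 6 libraries, by root mean square distance of centred log2(CPM + 1) values among 11138 genes with a mean of at least 5 CPM, were FAM96A (0.0982), YTHDF2 (0.191) and CYB5A (0.196). FAM96A stood at 10.8 and 11.3 CPM in T24 knockdown libraries, against 42.2 CPM in the control, and at 21.5 and 21.1 CPM in UMUC3 knockdown libraries, against 59.2 CPM in the control. Those closest to SAMHD1 were SHISA4 (0.198), RNF207 (0.228) and CUL9 (0.234).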

How the data were processed

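RNA was sequenced in 6 libraries: 2 T24 knockdown, 1 T24 control, 2 UMUC3 knockdown and 1 UMUC3 control. The authors deposited raw read counts per transcript, so the split of a gene's reads among its transcripts is theirs. The submitters' processing notes name HISAT2 2.1.0, StringTie 1.3.3b, FastQC 0.11.5 and hg38; strandedness and RNA selection are not given in the sources used here, so reads from overlapping or antisense genes cannot be told apart. Transcripts without a gene, 14.86 to 16.1% of a library's counts, entered neither library sizes nor tests. Counts were summed per gene; the 20721 genes that reached 10 counts in 2 or more libraries and 30 over all were tested with edgeR 4.0.16 (TMM, robust quasi-likelihood fit) in R 4.3.3, with Benjamini-Hochberg adjustment over all of them at 0.05. Both lines, and T24 against UMUC3, had an additive fit of line and condition (3 residual degrees of freedom). A fit of 4 groups (2 residual degrees of freedom) gave each line and the difference. It assumes that the lone control varies like the knockdown pair, whose libraries carry different siRNA numbers. The script was tested on simulated data. DESeq2, limma voom, other scalings and filters, and fits without each library were alternatives.

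The siRNA numbers of titles and data columns are crossed in T24 and alike in UMUC3; libraries 1 and 2 of a line are numbered here by title. Coordinates, transcript types and lengths are from GENCODE release 29 on GRCh38; all 99 transcripts of the set had identical coordinates there. Wilson intervals are at 95%. The genes, lists and composition-stable set were chosen with earlier results of these data known. All 10 genes are named; from the wider list, at most 3 a direction that passed in a comparison or, with none, the 2 with the smallest p are named.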

Additional observations from a re-analysis of the deposited data

Results flagged for a closer look

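In 5 genes both knockdown libraries lay on one side of the control in T24 and on the other side in UMUC3. The difference of the log2 fold changes, T24 minus UMUC3, was -2.28 for SLC29A2, -1.69 for DCTD, -0.54 for RRM1, -0.33 for DCK and 0.40 for CMPK1, which alone was above the control in T24 and below it in UMUC3. edgeR's test of this difference gave adjusted p values of 0.313, 0.471, 0.268, 0.506 and 0.443, so none passed. Of all genes, 13.8% had the pattern of the first 4 and 13.6% that of CMPK1. The T24 values of DCTD rest on knockdown library 2 (27.4 CPM), since library 1 (63.7 CPM) was close to the control (66.4 CPM).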

How the results depend on the processing

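RRM2B kept its direction in every knockdown fit tried, with a log2 fold change of -2.0 to -1.80 in T24 and -1.28 to -1.17 in UMUC3. In both lines RRM2B was at -1.90 to -1.22, ends from fits that lack a line's control and rest on the other line. It alone decided the counts of called genes after knockdown: these were 1 with DESeq2 and 1 among composition-stable genes (where RRM1 and RRM2B were the only genes of the set) in T24, UMUC3 and both lines, and 0 under every other alternative. Between the lines 7 genes were called. The count was 2 among composition-stable genes, where only 2 genes of the set were tested, and 2 with each gene's leading transcript alone. Leaving out each library it was 4 to 7, with RRM2, RRM2B and SLC29A2 lost without any 1 knockdown library. SLC29A2 kept the call in 9 of 19 alternatives, RRM2 in 14 of 19 and RRM2B in 14 of 20. The share of all genes called between the lines is given for the main fit alone. Counts under the alternatives, here and below, stand without one. The samples share only a number in their titles (correlation across genes of same-numbered deviations 0.0153). With a replicate block by title or column number edgeR called 0 genes after knockdown (RRM2B in both lines -1.57, adjusted p = 0.285 and 0.323) and 6 between the lines. The 4-group fit with the block by title number could not be fitted, so edgeR's earlier quasi-likelihood method was added after seeing the data; with that block it called 0 after knockdown and 3 between the lines. Of 775 other values, 717 kept direction and side of the threshold. With the leading transcript alone, signs reversed for DCK (1.08 in both lines, 1.37 in T24, 0.57 in the difference), SLC29A1 (0.01 in both lines, 1.09 in UMUC3), CMPK1 (-0.13 in both lines, 0.003 between the lines), RRM2 (-1.29) and SAMHD1 (-0.26) in the difference; RRM2 moved to 2.26 in both lines, 1.66 in T24 and 2.95 in UMUC3 (edgeR adjusted p = 0.322, 0.163 and 0.0768). This setting drops the other transcripts. Between the lines it called RRM1 and RRM2 alone. SAMHD1 also lost the call with the block by title number under edgeR's earlier quasi-likelihood method (adjusted p = 0.0509). With voom SLC29A2 was at 0.16 in both lines, and the cause was not tested. Leaving out each library, the both-line values spanned -0.18 to 0.36 for RRM1, -0.26 to 0.07 for DCK, -1.28 to 1.01 for SLC29A2, -0.54 to 1.14 for DCTD and -0.12 to 0.28 for CMPK1. The ends of these spans are the fits without the control of a line. Such a fit rests on the other line alone, so the spans repeat the difference between the lines. RRM2 in UMUC3 spanned -0.01 to 0.13 and DCTD between the lines -0.89 to 0.13. CDA, at 0 to 20 counts, is too shallow for a comparison.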

Other observations

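Outside the gemcitabine genes, other genes of nucleotide metabolism were also compared between the lines. Of the 29 tested, edgeR called 10 higher and 10 lower in T24, against 21.3% and 18.9% of all genes. NT5C, a cytosolic nucleotidase of deoxynucleotides, stood at 36.8, 32.5 and 38.6 CPM in the T24 libraries and at 0.378 CPM or less in those of UMUC3 (edgeR adjusted p = 0.000105). CTPS2, a CTP synthase, stood at 35.3, 37.2 and 29.9 CPM in T24 and at 0.357 CPM or less in UMUC3 (edgeR adjusted p = 0.000163). ABCG2, a drug exporter, stood at 2.39, 2.61 and 3.60 CPM in T24 and at 0.125 CPM or less in UMUC3 (edgeR adjusted p = 0.000524). In the other direction NT5E had a log2 difference of -4.42 ± 0.09 (edgeR adjusted p = 8.05e-06), ABCC4, an exporter of nucleotide analogues, one of -1.36 ± 0.14 (edgeR adjusted p = 0.00109) and NT5M, a mitochondrial deoxynucleotidase, one of -2.96 ± 0.31 (edgeR adjusted p = 0.00121).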
